A study of Mus musculus with 19 samples.

Results

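Leukocytes stop on and cross vessel walls with 2 kinds of adhesion receptor. The 9 genes here encode parts of such receptors or, for Itgb2l, a related chain: Itgam, Itgal, Itgax, Itgb2, Itgb2l, Itga4, Itgb1, Itgb7 and Selplg. They were taken as the rows of the count table with exactly these symbols, 9 of 38887 genes, and all 9 passed the expression filter that left 12943 genes for testing. The RNA came from myeloid-derived suppressor cells (MDSC), myeloid cells that can restrain T cell responses, from mouse spleen. The neutrophil-like form, PMN-MDSC, is given in the labels as CD11b+ Ly6C-intermediate Ly6G+ and the monocyte-like form, M-MDSC, as CD11b+ Ly6C-high Ly6G-. Each form was taken from newborn mice aged 7 days and from adult mice aged 6 to 8 weeks, which gave 6 adult PMN-MDSC, 5 newborn PMN-MDSC, 3 adult M-MDSC and 5 newborn M-MDSC libraries. No treatment, strain or genotype is given in the labels, and the study asks how these cells differ in newborns.

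An integrin is a pair of 1 α and 1 β chain in the membrane. The β2 chain, encoded by Itgb2, pairs with αL (Itgal) to form LFA-1, with αM (Itgam) to form Mac-1 and with αX (Itgax) to form CD11c/CD18; these receptors bind ICAM proteins on endothelium and, for Mac-1 and CD11c/CD18, complement fragments and fibrinogen. The α4 chain (Itga4) pairs with β1 (Itgb1) to bind VCAM-1 and with β7 (Itgb7) to bind the gut addressin MAdCAM-1. Selplg encodes PSGL-1, the ligand that lets leukocytes roll on selectins. Itgb2l encodes a β2-like chain, and whether it pairs with an α chain was not tested here. CD11b, the product of Itgam, was itself a selection marker of M-MDSC, and of PMN-MDSC in 1 of the 2 isolation texts of the labels; the other names Ly6G beads alone for PMN-MDSC.

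Sequencing depth differed by batch: the 10 batch 1 libraries held 827744 to 2965896 counts each and the 9 batch 2 libraries 14026193 to 45135933, with both batches present in every group. In PMN-MDSC, 5 pairs that each join a batch 1 and a batch 2 library (adult 1 and 32, 2 and 33, 3 and 34; newborn 2 and 37, 3 and 38) lay closer than other pairs. The median chi-square per gene was 0.658 to 0.909 in these pairs and 1.03 to 11.7 in the other 20 pairs, where sampling alone gives 0.455. The mean was 2.23 to 7.20 where sampling alone gives 1, so the members of a pair differed by more than sampling noise. A second preparation of 1 source could do the same, so this does not tell whether they share one. With levels centred inside each group and batch, the adult pairs had correlations of 0.469, 0.484 and 0.512. The other adult combinations had -0.359 to -0.187. The newborn pairs had 0.326 and 0.359, and the other newborn combinations -0.359 to 0.127. Centring ties these values together. The 2 newborn batch 1 libraries mirror each other exactly, and the deviations of the 3 adult libraries of a batch cancel out. Negative values in the other combinations are therefore partly forced and do not set the pairs apart. The members were kept as separate libraries, so a shared source would be counted more than once in the tests. Whether the members share a source was not tested, and results that change without the batch 1 partners are given both ways. Ly6g, which encodes a sort marker, was at 0 to 1.85 CPM (counts scaled per 1000000 in each library) in M-MDSC. In PMN-MDSC it differed by age, at 12.1 to 24.7 CPM in adults and 176 to 245 CPM in newborns. The Y-linked gene Kdm5d was at 0 counts in every adult library and was detected in every newborn one, while Xist was detected in all 19, so age and the mix of sexes change together and cannot be told apart. Markers of other cells also moved with age. Of all genes tested, 27.1% rose and 20.5% fell in newborn PMN-MDSC, and 15.9% rose and 14.3% fell in newborn M-MDSC. Of 14 B cell genes, 13 fell in newborn PMN-MDSC and 13 in newborn M-MDSC, and their sum went from 3234 to 5214 CPM in adults to 406 to 632 in newborns for PMN-MDSC, and from 689 to 1752 to 93.8 to 174 for M-MDSC. Other lists rose. In newborn PMN-MDSC 15 of 18 erythroid genes rose and 0 fell, and their sum was 216 to 530 CPM in adults and 3261 to 5727 in newborns. Of 9 eosinophil genes 6 rose and 1 fell there (70.9 to 144 CPM in adults, 347 to 874 in newborns). In newborn M-MDSC 0 erythroid genes were called, and 5 eosinophil genes rose and 1 fell. In bulk RNA, the number of cells of a type and the RNA per cell cannot be told apart.

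Compared with adult PMN-MDSC, newborn PMN-MDSC carried more transcript of Mac-1, LFA-1 and above all the β2-like chain. They carried less of CD11c, α4, β7 and PSGL-1. The falls of CD11c and PSGL-1 were less firm, as both calls were lost with batch 2 alone and without the batch 1 partners. Of the 9 genes, 8 were called at an adjusted p under 0.05 (edgeR's quasi-likelihood test), beside 47.7% of all genes tested: 4 rose (27.1% of all genes) and 4 fell (20.5%). In M-MDSC 4 of 9 were called, beside 30.2% of all genes, with Itgb2l alone rising (15.9%) and Itgax, Itgal and Itga4 falling (14.3%). The median log2 change over the 9 genes was 0.25 in PMN-MDSC, against -0.05 over all genes tested, and -0.22 in M-MDSC, against 0.01. Without the batch 1 partners 6 of 9 were called in PMN-MDSC, beside 23.5% of all genes, and 3 in M-MDSC, beside 17.7%. The plot of levels by library shows where the groups separate: 7 of 9 genes had no overlap between newborn and adult PMN-MDSC, beside 51.4% of all genes tested, and 3 of 9 (Itgax, Itgb2l and Itga4) had none between newborn and adult M-MDSC, beside 23.1%.

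**Figure D1:**
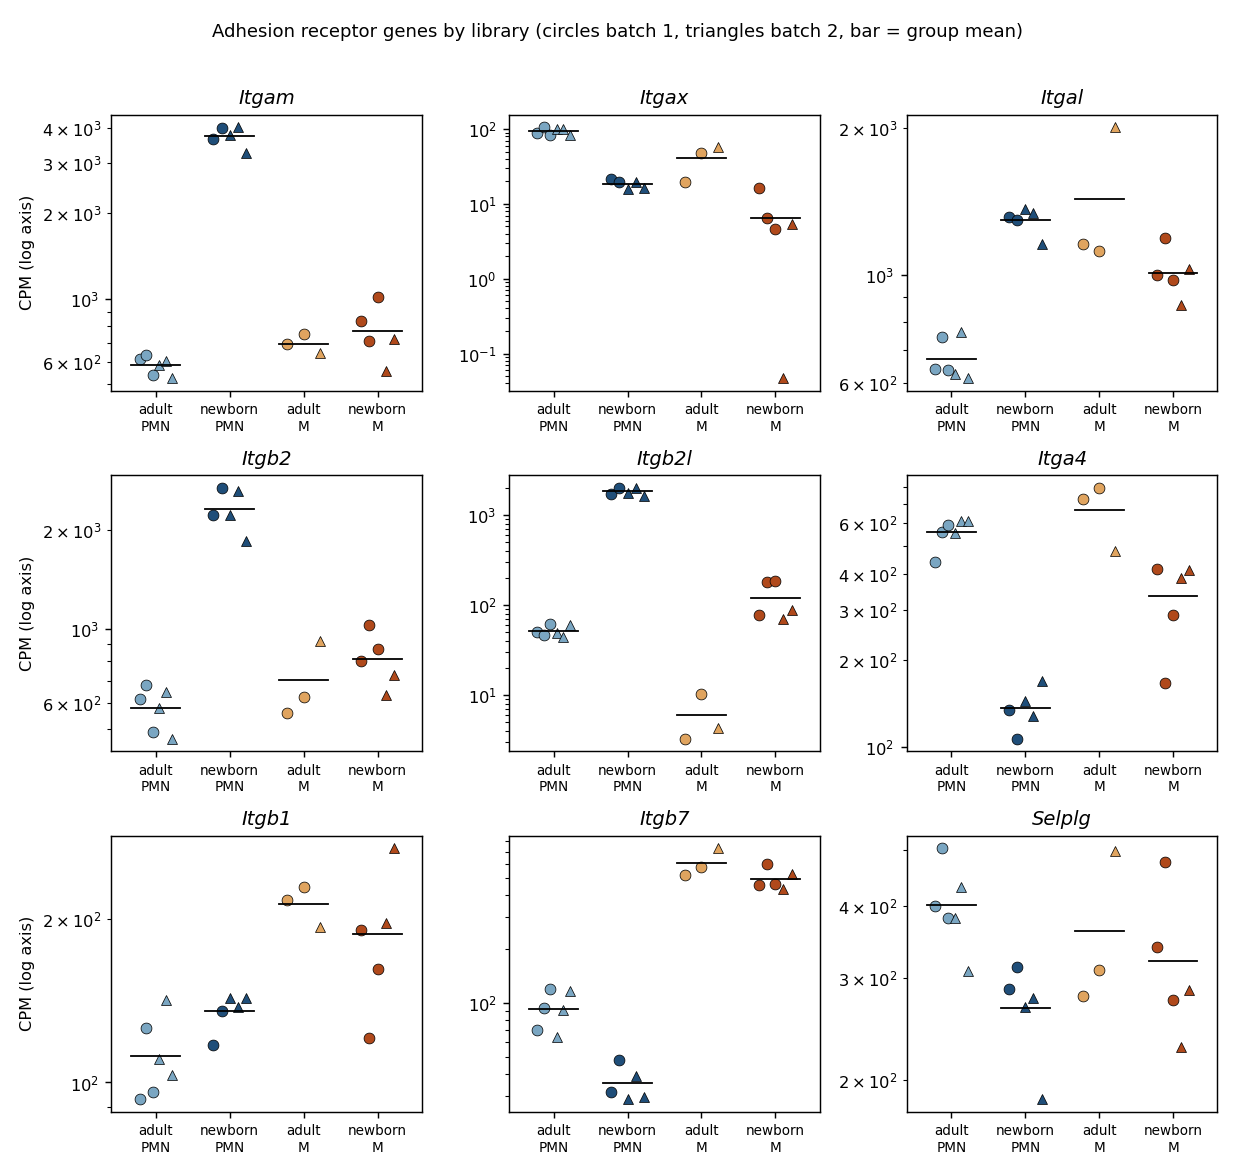
Level of each of the 9 genes in each of the 19 libraries, in CPM on a log axis that differs between panels; circles are batch 1, triangles batch 2 and bars group means. Newborn PMN-MDSC stand apart at high Itgam, Itgb2 and Itgb2l and at low Itgb7, and overlap newborn M-MDSC at low Itga4; 1 newborn M-MDSC library had 0.0469 CPM of Itgax.

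Itgam and Itgax lie side by side on chromosome 7 of GRCm38 (mm10), both on the plus strand, Itgam at chr7:128062640-128118491 and Itgax at chr7:128129547-128150657, with 11055 bases between them; Itgal lies upstream at chr7:127296260-127335138. The stretch of 250 bases before the RefSeq start (GRCm38.p6) was read for Itgam, Itgax and Itgb2l, because in PMN-MDSC these genes showed the largest changes with age of the β2 group and went in different directions. RefSeq windows matched 6 of the 9 genes (Itgam, Itgax, Itgb2l, Itga4, Itgb1 and Itgb7). Capitals mark matches, on either strand, to GAGGAAG (a core that PU.1, the ETS factor of myeloid cells, can bind) or to GGGCGG (a GC box that SP1 can bind); TGTGGT (RUNX) and TTGCNNAA (C/EBP) were also searched, and no match of one motif overlapped another. The windows are chr7:128062390-128062639 (plus strand), chr7:128129300-128129549 (plus strand) and chr16:96443615-96443864 (minus strand), each printed 5′ to 3′ on the gene's strand.
Itgam: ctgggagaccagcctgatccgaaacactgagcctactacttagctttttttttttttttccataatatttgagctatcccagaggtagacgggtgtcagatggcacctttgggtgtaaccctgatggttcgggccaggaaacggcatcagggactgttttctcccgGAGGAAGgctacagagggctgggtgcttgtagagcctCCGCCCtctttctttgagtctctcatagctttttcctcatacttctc
Itgax: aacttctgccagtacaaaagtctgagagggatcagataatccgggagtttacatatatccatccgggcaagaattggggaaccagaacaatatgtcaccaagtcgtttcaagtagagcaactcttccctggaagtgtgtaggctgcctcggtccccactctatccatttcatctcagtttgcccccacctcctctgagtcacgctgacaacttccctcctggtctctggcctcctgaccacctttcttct
Itgb2l: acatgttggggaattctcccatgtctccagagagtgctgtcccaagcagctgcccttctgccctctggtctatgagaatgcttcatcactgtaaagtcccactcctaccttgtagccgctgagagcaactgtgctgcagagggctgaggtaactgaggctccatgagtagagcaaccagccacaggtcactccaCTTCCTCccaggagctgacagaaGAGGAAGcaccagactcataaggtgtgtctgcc
The window of Itgam held 1 GAGGAAG, 84 to 78 bases before the start, and 1 GC box on the minus strand, 47 to 42 bases before it. The window of Itgb2l held 2 matches to GAGGAAG, at 33 to 27 bases before the start on the plus strand and 56 to 50 on the minus strand, and the window of Itgax held none of the 4 motifs. GAGGAAG occurred in 10.6% and GGGCGG in 32.7% of 32851 RefSeq windows of this length; TGTGGT occurred in 14.0% and TTGCNNAA in 9.56%. In the other matched windows, Itga4 held 1 RUNX and 1 GC box match, Itgb1 held 1 GC box and Itgb7 none. A match of letters is a description of the window and does not show that a factor binds there.

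Itgam, the αM chain of Mac-1, was at 524 to 632 CPM in adult PMN-MDSC (median 593, 6 libraries) and at 3666, 4011, 3775, 4020.2 and 3259 CPM in newborn PMN-MDSC. The groups did not overlap, and the lowest newborn library was over 5 times the highest adult one. The log2 change was 2.70 ± 0.13 (SE), 6.51-fold, with an adjusted p of 1.25e-11. In M-MDSC it was at 690.5, 748 and 641 CPM in adults and at 833, 711, 1014, 555 and 722 CPM in newborns. Those groups overlapped, and the log2 difference of 0.15 ± 0.15 was not called (adjusted p = 0.483). The age effect was smaller in M-MDSC than in PMN-MDSC by 2.55 ± 0.19 on the log2 scale (adjusted p = 8.70e-08), so that newborn PMN-MDSC were above all 3 other groups, whose means lay between 582 and 767 CPM. Of the 50-base stretches of Itgam transcripts, 66.3% also occur in the annotated read-through gene Gm49368, which overlaps it on the same strand and has no row in the table, so reads of the 2 models cannot be told apart.

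Itgal, the αL chain of LFA-1, was at 614 to 762 CPM in adult PMN-MDSC (median 639.7) and at 1312, 1293, 1365, 1337 and 1156 CPM in newborn PMN-MDSC. No newborn library reached down to the adult range, and the log2 change was 0.94 ± 0.14 (adjusted p = 2.11e-05). In M-MDSC the direction was the other way. Adult libraries had 1158, 1122 and 2004 CPM and newborn libraries 999, 1188, 975, 867 and 1027 CPM. The fall of 0.49 ± 0.17 on the log2 scale was called (adjusted p = 0.0333), but 1 adult library, replicate 28, was far above the other two, and without it the difference was -0.15 (adjusted p = 0.463). The call was also lost without adult PMN-MDSC replicate 3 or newborn M-MDSC replicate 1, 77 or 79 (-0.48 to -0.42) and without the batch 1 partners (-0.52, adjusted p = 0.0734). The age effects of the 2 cell types differed by -1.43 ± 0.22 (adjusted p = 0.000170), and by -1.05 with batch 1 alone, where the adjusted p was 0.0665, and -2.04 with batch 2 alone.

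Itgax, the αX chain (CD11c) best known from dendritic cells, was at 84.0 to 106 CPM in adult PMN-MDSC (median 93.6) and at 21.3, 19.5, 15.9, 19.6 and 16.1 CPM in newborn PMN-MDSC. It was the 1 β2 partner of the set that fell in both cell types. The log2 change was -2.33 ± 0.56 (5.03-fold lower, adjusted p = 0.00207) in PMN-MDSC; without the batch 1 partners it was -2.41 with an adjusted p of 0.0680, and with batch 2 alone -2.39 with 0.0551. Adult M-MDSC libraries had 19.7, 47.7 and 57.4 CPM and newborn ones 16.3, 6.41, 4.63, 0.0469 and 5.48 CPM. The highest newborn M-MDSC library was thus below the lowest adult one, and the library at 0.0469 CPM had 1 count. The log2 change in M-MDSC was -2.93 ± 0.68 (adjusted p = 0.00331), -1.89 within batch 1 and -4.25 within batch 2, where adults had 1 library. With only the M-MDSC groups fitted it was -2.99 and not called (adjusted p = 0.113). A difference of the age effects between cell types of -0.60 ± 0.87 was not called (adjusted p = 0.693). The summed level of 12 dendritic cell genes moved the same way. It went from 332 to 429 CPM in adults to 70.2 to 83.4 in newborns for PMN-MDSC. For M-MDSC it went from 267 to 361 to 68.8 to 153. Of the 11 tested, 3 fell and 8 were not called in each cell type. Of all genes, 20.5% fell in PMN-MDSC and 14.3% in M-MDSC. Lists of other cells also fell, while those of neutrophils and eosinophils mostly rose. Plasma cell genes fell in 6 of 7 and B cell genes in 13 of 14 in each cell type. Macrophage genes fell in 4 of 9 in PMN-MDSC and 7 of 9 in M-MDSC. The part of any of these cells in the Itgax result was not tested. Of the 50-base stretches of Itgax, 8.02% occur in Itgad, a neighbouring β2 partner.

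The common β2 chain rose in newborn PMN-MDSC and was not called in M-MDSC. Itgb2 (chr10:77530252-77565708, plus strand), the common β2 chain, was at 467 to 680 CPM in adult PMN-MDSC (median 596) and at 2221, 2674, 2219, 2616 and 1845 CPM in newborn PMN-MDSC. The groups stood well apart, at a log2 change of 2.00 ± 0.16 (4.01-fold, adjusted p = 1.11e-08). In M-MDSC the adult libraries had 560.5, 624 and 923 CPM and the newborn libraries 805, 1028, 873, 631 and 727 CPM. These overlapped, and the difference of 0.20 ± 0.20 was not called (adjusted p = 0.478); without adult replicate 28, the high one, it was 0.53 and called (adjusted p = 0.0455), and with batch 2 alone it was -0.38. The age effects differed by -1.80 ± 0.25 between the cell types (adjusted p = 6.76e-05).

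Itgb2l (chr16:96422288-96443619, minus strand) changed more than any other of the 9 genes in both cell types. It was at 44.0 to 61.2 CPM in adult PMN-MDSC (median 49.6) and at 1741, 2014, 1786, 2013 and 1651 CPM in newborn PMN-MDSC, a log2 change of 5.18 ± 0.27 or 36.2-fold (adjusted p = 4.95e-11). Adult M-MDSC libraries had 3.29, 10.4 and 4.32 CPM and newborn M-MDSC libraries 78.5, 182, 185, 70.0 and 88.6 CPM, a log2 change of 4.34 ± 0.38 or 20.3-fold (adjusted p = 1.43e-07). The 4 groups did not overlap anywhere in the order newborn PMN-MDSC, newborn M-MDSC, adult PMN-MDSC, adult M-MDSC. The difference of the age effects, -0.84 ± 0.41, was not called (adjusted p = 0.176).

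Because a related chain could draw reads from Itgb2, the coding sequences of both were compared. They were identical at 74.1% of aligned base pairs (GENCODE M21 transcripts, GRCm38), and no 50-base stretch of Itgb2l, the length of a read, occurs in another annotated gene. Igsf5 overlaps Itgb2l on the opposite strand and has no row in the table. The search for shared 50-base stretches covered both strands, so none is shared with an annotated transcript of Igsf5. Whether reads were counted by strand is not given in the sources used here.

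Neutrophil marker genes, of granules and of other parts of the cell, rose along with Itgb2l. Of 12 neutrophil genes, 10 rose and 1 fell in newborn PMN-MDSC, beside 27.1% and 20.5% of all genes. In newborn M-MDSC 9 rose, beside 15.9% of all genes, and 0 fell. Their sum was 8863 to 9667 CPM in adults and 86768 to 96158 in newborns for PMN-MDSC. For M-MDSC it was 689.9 to 1149 in adults and 5416 to 17448 in newborns. Newborn M-MDSC replicates 2 and 3 had the highest sums of their group (17448 and 14314, against 5416 to 6086 in the others) and also the highest Itgb2l. Ly6g, the neutrophil sort marker, was at 1.28 and 1.85 CPM in those libraries, on 2 and 4 counts, which were the highest levels among M-MDSC; the other newborn M-MDSC libraries had 0, 0 and 1.25 CPM. With both left out, a choice made after the data were seen, the M-MDSC change in Itgb2l was 3.82 ± 0.30 (adjusted p = 3.81e-07). Per 1000 CPM of the neutrophil list, PMN-MDSC had 4.55 to 6.90 CPM of Itgb2l in adults and 18.6 to 23.1 in newborns, and M-MDSC had 3.76 to 11.1 in adults and 10.4 to 14.6 in newborns. The part of neutrophil-lineage RNA in the M-MDSC result, or in the PMN-MDSC changes of Itgam, Itgal, Itgb2 and Itgb2l, was not tested.

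**Figure D2:**
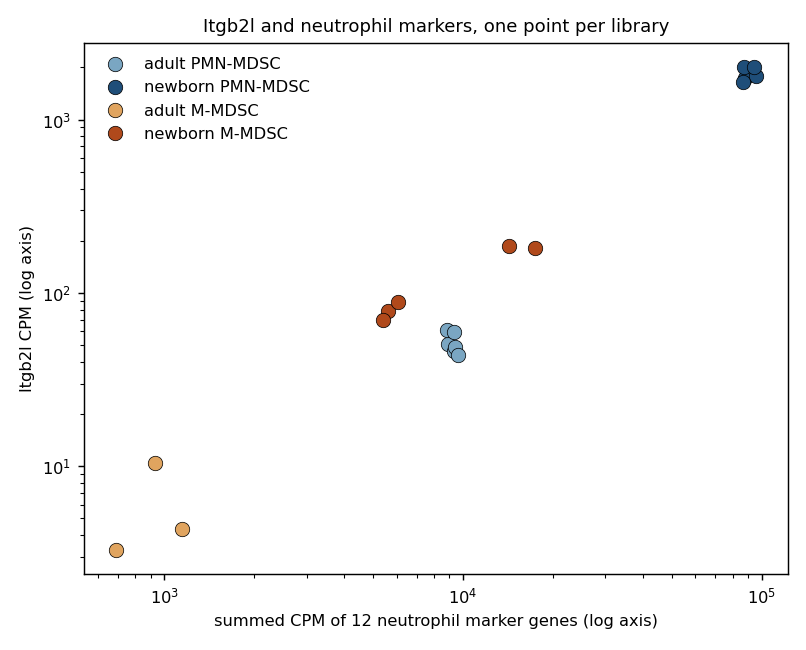
Itgb2l in CPM against the summed CPM of 12 neutrophil marker genes, both on log axes, with 1 point per library. Newborn libraries lie above adult ones of the same cell type on both axes, and newborn M-MDSC replicates 2 and 3, at 182 and 185 CPM of Itgb2l, have the highest sums of their group.

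In newborn PMN-MDSC the transcripts of α4 and β7 fell. Itga4 (chr2:79255426-79333123, plus strand) was at 438 to 611 CPM in adult PMN-MDSC (median 576) and at 134, 107, 144, 128 and 170.0 CPM in newborn PMN-MDSC. The highest newborn library was far below the lowest adult one, and the log2 change was -2.06 ± 0.21 (4.16-fold lower, adjusted p = 1.98e-07). In M-MDSC it was at 731, 797 and 479.5 CPM in adults and at 416, 167, 289, 387 and 413 CPM in newborns. No newborn library reached the adult range, though adult replicate 28 came close. The log2 change of -1.04 ± 0.24 was called (adjusted p = 0.00276); within batch 1 it was -1.40 (adjusted p = 0.00748) and within batch 2, with replicate 28 as the only adult library, -0.20 (adjusted p = 0.551). With only the M-MDSC groups fitted it was -1.07 and not called (adjusted p = 0.0741). The age effect was less negative in M-MDSC by 1.02 ± 0.32 (adjusted p = 0.0300), a call lost when any of 12 libraries was left out (0.75 to 1.06, adjusted p 0.0528 to 0.105) or without the batch 1 partners (0.88, adjusted p = 0.303). The 12 libraries were adult PMN-MDSC 1, 2 and 3, newborn PMN-MDSC 2, 3, 37 and 38, adult M-MDSC 1 and 28, and newborn M-MDSC 1, 3 and 79. Cerkl overlaps Itga4 on the opposite strand and holds most of the 7.51% of its 50-base stretches found elsewhere, but had 438 counts in all libraries together.

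Itgb7 (chr15:102215995-102231944, minus strand) was at 64.7 to 119 CPM in adult PMN-MDSC (median 92.4) and at 31.7, 47.6, 28.9, 39.1 and 29.6 CPM in newborn PMN-MDSC. The groups did not overlap, and the log2 change was -1.40 ± 0.19 (adjusted p = 5.40e-06). It was far higher in M-MDSC, at 518, 572 and 729 CPM in adults and 458, 600, 462, 433 and 521 CPM in newborns, where the groups overlapped and the difference of -0.30 ± 0.21 was not called (adjusted p = 0.315). The age effects differed by 1.10 ± 0.28 (adjusted p = 0.0105); within batch 1 the difference was 1.16 (adjusted p = 0.126), within batch 2 0.86 (adjusted p = 0.168) and without the batch 1 partners 1.09 (adjusted p = 0.0516). In the closer library pairs Itgb7 was at 70.2 and 64.7, 93.4 and 91.3, and 119 and 116 CPM in adults. The newborn pairs had 31.7 and 28.9, and 47.6 and 39.1 CPM. Other genes could differ more within a pair, such as Itga4 at 438 and 554 CPM in adult 1 and 32. Both Itga4 and Itgb7 are also made by lymphocytes, whose B cell genes fell in the same comparisons, and the part of those cells was not tested.

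Itgb1 (chr8:128685654-128733200, plus strand), the β1 chain shared by many integrins, was not called between ages in either cell type. PMN-MDSC had 93.2 to 141 CPM in adults and 117 to 143 in newborns, and M-MDSC 193 to 229 in adults and 121 to 269 in newborns, so the ages overlapped in both. Neither the PMN-MDSC difference of 0.25 ± 0.15 (adjusted p = 0.190) nor the M-MDSC difference of -0.22 ± 0.18 (adjusted p = 0.408) was called. Selplg (chr5:113818536-113832644, minus strand), the selectin ligand, ran from 308 to 503 CPM in adult and from 185 to 313 CPM in newborn PMN-MDSC, ranges that overlap at their ends. Its log2 change of -0.58 ± 0.20 was called (adjusted p = 0.0204), but not without newborn replicate 39, the lowest (-0.49, adjusted p = 0.0608), nor without the batch 1 partners (-0.57, adjusted p = 0.184) or within batch 1 (-0.53, adjusted p = 0.145) or batch 2 (-0.55, adjusted p = 0.0799). In M-MDSC Selplg was at 280 to 498 CPM in adults and 228 to 476 CPM in newborns, and the difference of -0.20 ± 0.23 was not called (adjusted p = 0.553).

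**Figure D3:**
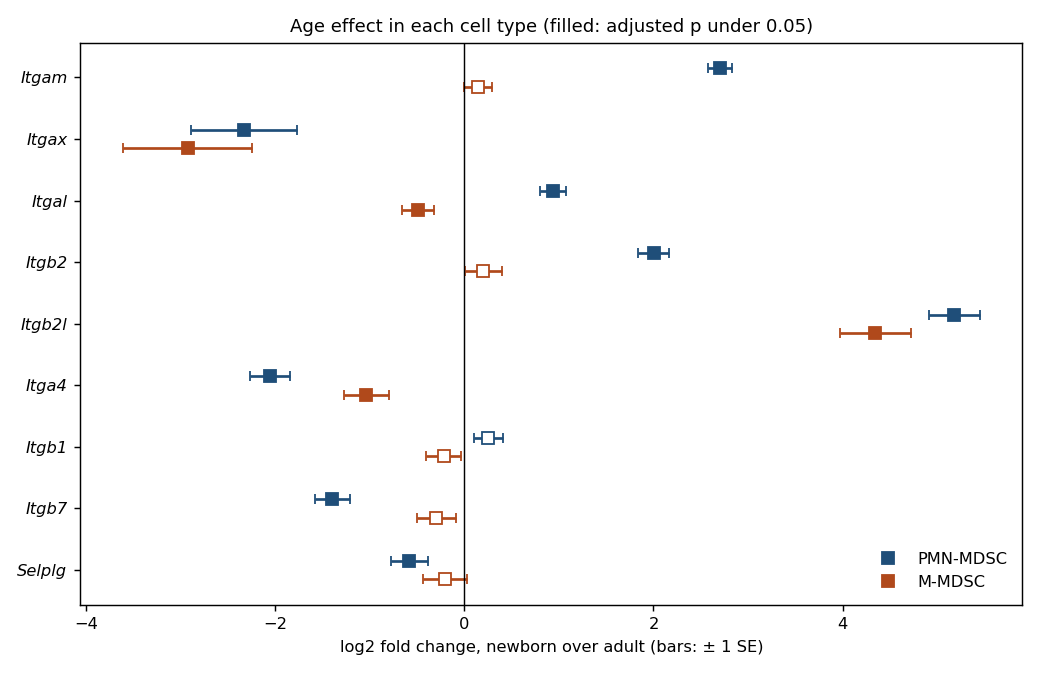
Log2 fold change of newborn over adult for each gene in PMN-MDSC (blue) and M-MDSC (brown), with bars of 1 standard error; filled squares have an adjusted p under 0.05. Itgam and Itgb2 lie at 2.70 and 2.00 in PMN-MDSC and at 0.15 and 0.20 in M-MDSC, while Itgb2l lies far to the right and Itgax to the left in both.

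The difference of the age effects was called for 5 of the 9 genes, beside 18.1% of all genes: Itgam, Itgal and Itgb2 on the lower side (11.5% of all genes) and Itga4 and Itgb7 on the higher side (6.61%). The count was 3 without the batch 1 partners, beside 6.08% of all genes, and 2 with batch 1 alone, beside 3.41%. Both age effects enter each of these values. The test asks whether the 2 age effects differ, and it adds no further evidence for either age effect itself.

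Levels can be set between genes only per length, here as CPM per kilobase of annotated exon. Among the 3 α partners of β2, the share of Itgam was 48.8% ± 1.6 (SD, n = 6) in adults and 78.8% ± 0.83 (n = 5) in newborns for PMN-MDSC. For M-MDSC it was 39.0% ± 9.0 (n = 3) in adults and 49.2% ± 5.5 (n = 5) in newborns. Itgal made up 43.0%, 20.8%, 58.6% and 50.4% in the same order. So the larger part of the measured α transcript was Itgam in newborn PMN-MDSC and Itgal in adult M-MDSC. Itgax gave 8.20% in adult PMN-MDSC and 0.407% in newborn PMN-MDSC, and 2.33% and 0.425% in adult and newborn M-MDSC. These shares leave out Itgad, the αD chain, for which PMN-MDSC had 161 ± 73 CPM in adults and 215 ± 14 in newborns, and M-MDSC 33.6 ± 17 in adults and 7.83 ± 6.1 in newborns. The ratio of the 3 α chains together to Itgb2 was 1.26 at both ages in PMN-MDSC; in M-MDSC it was 1.60 in adults and 1.17 in newborns.

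Of Itgb2 and Itgb2l transcript together, Itgb2l made up 6.11% ± 1.7 in adult (n = 6) and 36.1% ± 1.6 in newborn PMN-MDSC (n = 5). In M-MDSC it made up 0.634% ± 0.46 in adults (n = 3) and 9.15% ± 2.8 in newborns (n = 5). These are shares of transcript, not of receptor. With the length of the longest coding transcript in place of all exons, a choice made after the data were seen, the 4 shares were 8.87%, 45.8%, 0.946% and 13.1%. Of Itgb7 and Itgb1 together, Itgb7 made up 54.5% ± 7.4 in adults and 27.7% ± 4.7 in newborns for PMN-MDSC, against 80.4% ± 3.8 and 79.5% ± 5.4 for M-MDSC. Among the α4 partners, β7 transcript therefore exceeded β1 in M-MDSC of both ages and fell below it in newborn PMN-MDSC.

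**Figure D4:**
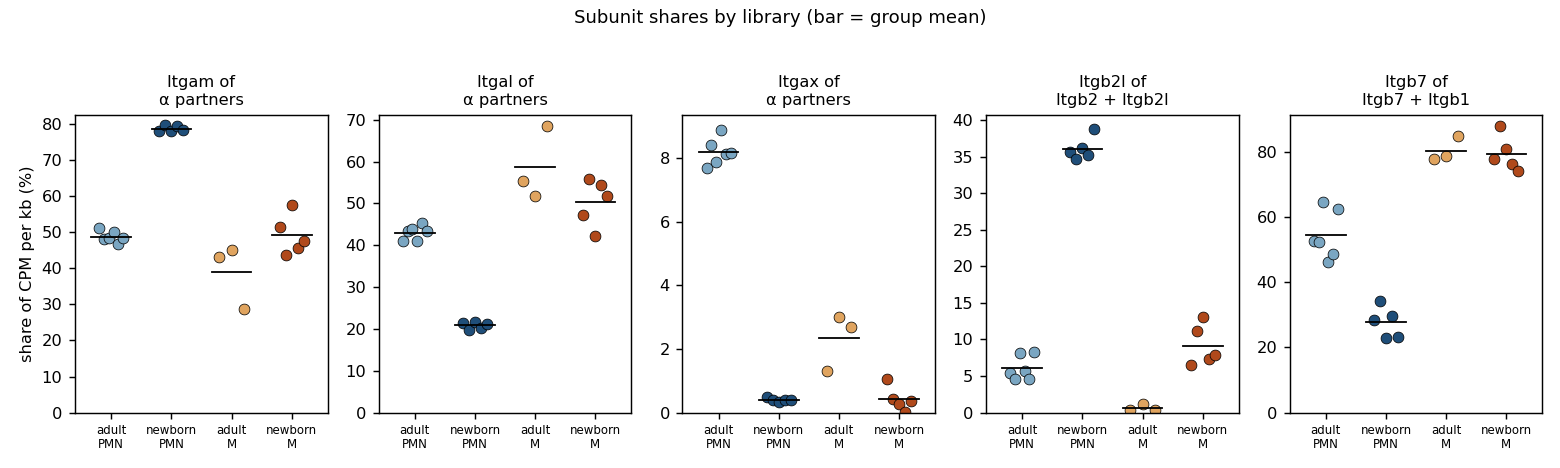
Share of each subunit in its set, from CPM per kilobase, with 1 point per library and bars at group means; vertical axes are linear from 0 and differ between panels. Newborn PMN-MDSC stand apart at 78.8% Itgam, 36.1% Itgb2l and 27.7% Itgb7 on average.

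Between cell types of the same age, which the age comparisons share as groups, adult M-MDSC differed from adult PMN-MDSC in 4 of 9 genes, beside 29.1% of all genes. Itgb7 (2.70 ± 0.20), Itgal (1.09 ± 0.16) and Itgb1 (0.97 ± 0.18) were higher in adult M-MDSC, where 16.7% of all genes were, and Itgb2l (-3.22 ± 0.36) was lower, where 12.5% were. Itgax had a log2 difference of -1.16 ± 0.64 that was not called (adjusted p = 0.184), but was called at -1.14 (adjusted p = 0.0110) without newborn M-MDSC replicate 77, the library with 1 count. In newborns 7 of 9 genes differed, beside 42.0% of all genes. Itgb7 (3.80 ± 0.21), Itga4 (1.32 ± 0.21) and Itgb1 (0.51 ± 0.16) were higher in M-MDSC, where 18.7% of all genes were, and Itgb2l (-4.05 ± 0.28), Itgam (-2.33 ± 0.14), Itgax (-1.76 ± 0.64) and Itgb2 (-1.53 ± 0.17) were lower, where 23.4% were. The calls of Itgb1 and Itgax were lost in several fits with fewer libraries. Itgb1 lost its call without any of 10 libraries (0.36 to 0.47): adult PMN-MDSC 1 or 2, newborn PMN-MDSC 2, 3, 37 or 38, adult M-MDSC 1, or newborn M-MDSC 1, 3 or 79. Itgax lost it without newborn PMN-MDSC 2 or 38 or newborn M-MDSC 3 or 79 (-1.83 to -1.74). Without the batch 1 partners neither was called (Itgb1 0.47, adjusted p = 0.212; Itgax -2.07, adjusted p = 0.147). Itgal, at -0.34 ± 0.15 (adjusted p = 0.0772), was called without any of 8 libraries (-0.47 to -0.37): adult PMN-MDSC 1 or 2, newborn PMN-MDSC 38, adult M-MDSC 1, 3 or 28, or newborn M-MDSC 2 or 3. The cell types did not overlap in 6 of 9 genes in adults, beside 29.7% of all genes tested, and in 4 of 9 in newborns, beside 38.4%. Without the batch 1 partners 5 of 9 were called in newborns, beside 27.0% of all genes, and 4 in adults, beside 15.1%.

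In the order of group means, Itgam ran from newborn PMN-MDSC down to newborn M-MDSC, adult M-MDSC and adult PMN-MDSC, and the M-MDSC groups overlapped. Itgb2 had the same order, with the 3 lower groups overlapping their neighbours. Itgal ran from adult M-MDSC through newborn PMN-MDSC and newborn M-MDSC, all overlapping their neighbours, to adult PMN-MDSC, which lay apart below them. Itgax was highest in adult PMN-MDSC, apart from the other groups, which overlapped their neighbours. Itga4 split into overlapping adult groups above and overlapping newborn groups below, while Itgb7 split into overlapping M-MDSC groups above and adult, then newborn, PMN-MDSC below. For Itgb1 and Selplg every group overlapped its neighbours in the order. Per kilobase of exon, Itgb2 led in all 4 groups, at 189.8 CPM per kilobase in adult and 759 in newborn PMN-MDSC. Itgb2l was the third highest of the 9 genes in newborn PMN-MDSC, at 426, and the lowest in both adult groups, at 1.39 in adult M-MDSC. With the length of the longest coding transcript Itgb2 led in newborn M-MDSC alone: Itgam (1012) passed it (779.5) in newborn PMN-MDSC, Selplg (216 against 195) in adult PMN-MDSC and Itgal (315 against 237) in adult M-MDSC.

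For each gene whose group means spanned at least 1 on the log2 scale, the genes most like it over the 19 libraries were found by the root mean square (RMS) difference of centred log2 CPM. The nearest to Itgb2l were Lcn2 (0.41), Ltf (0.45) and Ngp (0.61), which encode neutrophil granule proteins, where the median gene was at 2.88. Itgam was most like Arrb2, Dock5 and Ceacam1 (0.30 to 0.31), Itgb2 most like Ccdc88b, Nbeal2 and Rasgrp4 (0.19 to 0.21) and Itgal most like Stk10, Il17ra and Rab43 (0.15 to 0.18). For Itgax the nearest were Agpat3, Gm5150 and Mzb1 (0.50 to 0.55), for Itga4 Plekhm3 and Ccdc50 beside an identifier without a symbol (0.31 to 0.33), and for Itgb7 Pld4, Padi2 and Zcchc24 (0.30 to 0.39). The libraries share groups and depth, and these distances describe likeness only.

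Pathway genes are named below only where called at an adjusted p under 0.05 (edgeR), unless stated. The counts of each list stand beside all genes tested. Of those, 27.1% rose and 20.5% fell in newborn PMN-MDSC, and 15.9% rose and 14.3% fell in newborn M-MDSC. Of 26 tested genes whose products switch integrins on or tie them to actin, 13 rose, 1 fell and 12 were not called in newborn PMN-MDSC, with a list median of 0.69 against -0.05 over all genes. They include, each with its log2 change ± SE, Vcl, vinculin (2.99 ± 0.13), Flna, filamin A (2.68 ± 0.14), Fermt3, kindlin-3, which binds β tails (2.02 ± 0.19), Tln1, talin 1 (1.64 ± 0.16), and Rassf5, the Rap1 effector (from 242 ± 21 to 560.4 ± 36 CPM, SD). In M-MDSC 5 rose and 6 fell (list median 0.09 against 0.01); Parvg, parvin gamma (1.75 ± 0.24), Flna (0.96 ± 0.17) and Vcl (0.90 ± 0.16) rose, and the adaptors Fyb (-1.85 ± 0.24) and Skap1 (-4.13 ± 0.78) fell. Skap1 is also a T cell gene, and 14 of 15 T cell markers fell in that comparison, from 187 to 537 CPM in sum to 12.3 to 44.9.

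Genes that signal from bound integrins rose in 15 of 20 cases and fell in 2 in newborn PMN-MDSC (list median 0.93), and rose in 3 and fell in 4 in newborn M-MDSC (-0.24). Cd177, a neutrophil surface protein that associates with Mac-1, went from 173 ± 25 to 4933 ± 506 CPM in PMN-MDSC (4.84 ± 0.23, adjusted p = 1.42e-11) and from 248 ± 51 to 328 ± 126 in M-MDSC, which was not called (adjusted p = 0.250). The GTPases Rac2 (1.65 ± 0.20) and Rac1 (0.99 ± 0.12), the actin regulator Was (1.41 ± 0.18) and Cd47 (0.95 ± 0.13) rose in newborn PMN-MDSC. The kinases Syk (-0.79 ± 0.13) and Lyn (-0.53 ± 0.15) and the exchange factor Dock2 (-0.51 ± 0.17) fell in newborn M-MDSC, Syk also in newborn PMN-MDSC (-0.54), and in M-MDSC Vav1 was among those that rose (0.43 ± 0.14).

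Among selectins and the enzymes that build their ligands, 7 of 17 rose and 4 fell in newborn PMN-MDSC (list median 0.54) and 2 rose and 2 fell in M-MDSC (0.26). Enzymes that modify PSGL-1 moved in different directions in PMN-MDSC. Fut7, the fucosyltransferase of selectin ligands, rose by 2.80 ± 0.41 from 1.12 to 8.50 CPM and B4galt1 rose by 1.30 ± 0.15, while Gcnt1, the core 2 branching enzyme, changed by -1.39 ± 0.20 and Tpst1, which sulfates tyrosines, by -3.17 ± 0.42. Spn, the sialomucin CD43, rose by 1.84 ± 0.18. In M-MDSC Tpst1 (-1.70 ± 0.45) and St3gal6 (-3.13 ± 0.61) fell, and B4galt1 rose (0.82 ± 0.19). Selp was also called as higher there, on 1, 0 and 0 counts in the adult libraries and 6, 5, 5, 113 and 6 in the newborn ones, too few in adults for a fold.

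Of the other integrin chains, 11 of 19 could be tested. In newborn PMN-MDSC 2 rose and 1 fell (list median -0.31), where 47.7% of all genes were called. In newborn M-MDSC 1 rose and 4 fell (-0.44), where 30.2% of all genes were called. Itgb3 (1.67 ± 0.20) and Itga6 (1.14 ± 0.28) rose in PMN-MDSC and Itga5, the fibronectin receptor chain, fell there (-1.85 ± 0.29). In M-MDSC Itga6 rose (1.21 ± 0.37), and Itga9 (-2.72 ± 0.53), Itgad (-2.55 ± 0.72), Itga5 (-1.30 ± 0.31) and Itgav (-0.87 ± 0.23) fell. Of 13 tested adhesion ligands, 3 rose and 6 fell in PMN-MDSC and 2 rose and 5 fell in M-MDSC, with list medians of -0.94 and -0.79. Icam1, the ligand of LFA-1 and Mac-1, fell in both cell types, by 2.15 ± 0.22 in PMN-MDSC and 2.04 ± 0.25 in M-MDSC on the log2 scale. Pecam1 (-1.46 ± 0.17 and -0.83 ± 0.20) and Jaml (-2.03 and -1.30) also fell in both. Fn1, fibronectin, a ligand of α4β1, rose in both (2.75 ± 0.27 and 1.52 ± 0.29), from 3.49 to 24.7 CPM in PMN-MDSC and from 2534 to 7262 CPM in M-MDSC, and so did Emilin1 (1.79 ± 0.19 and 1.19 ± 0.22).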

How the data were processed

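The values the authors deposited are estimated counts, whole numbers without normalization, for each gene; per the submitters' processing notes RSEM 1.2.3, mm10 and, without a role, DESeq2 were used. Aligner: not given in the sources used here, nor is the annotation release. Per the labels' protocols, total RNA was sequenced with single-end 50 bp reads; 1 protocol text names Ly6G beads for PMN-MDSC and the other CD11b beads followed by a sort. Rounding changed 0 values. All 19 libraries entered 1 edgeR 4.0.16 quasi-likelihood fit (R 4.3.3) with group and batch terms, TMM scaling and edgeR's filter by group, which left 14 residual degrees of freedom. Adjusted p is Benjamini-Hochberg over the 12943 genes of 1 comparison, called under 0.05; standard errors come from the fold change and F. The script was tested on simulated data. CPM uses TMM-scaled library sizes, and group values are mean ± SD. Lengths are unions of GENCODE M21 exons (GRCm38); 50-base sharing is exact. Replicates are not said to be separate animals, so p-values measure the spread between libraries, which may be technical. The 9 genes, the 5 pathway lists and the 13 marker lists were chosen with earlier results of these data known. Named are all 9 genes, up to 5 called genes per pathway list and age comparison by smallest adjusted p, 3 genes most like each of the 7 whose group means spanned at least 1 on the log2 scale (log2 CPM, prior count 2), Kdm5d and Xist; Itgad, Ly6g and any other gene were chosen after their values were seen. Alternatives covered batch terms, single batches, compared groups only, scaling, filters, DESeq2 1.42.0, limma-voom (limma 3.58.1), a replicate block and each library left out. Some items are not reported here.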

Additional observations from a re-analysis of the deposited data

Results flagged for a closer look

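In 5 genes the age effect differed between the cell types by a test of the difference itself (edgeR, M-MDSC minus PMN-MDSC, log2 scale). It was -2.55 for Itgam, -1.80 for Itgb2 and -1.43 for Itgal, all called as higher in newborn PMN-MDSC and none called as higher in newborn M-MDSC, and 1.10 for Itgb7 and 1.02 for Itga4, both called as lower in newborn PMN-MDSC; in M-MDSC Itga4 was called as lower and Itgb7 was not called. Itga4 in adult PMN-MDSC had 1 library far from the others: replicate 1, at 438 CPM, lay below the next lowest at 554 CPM while the highest was 611 CPM. Among 27 such checks of groups of 4 to 10 libraries, 1 was marked, and chance marks about 1 in 20. Without that library the PMN-MDSC fall in Itga4 was still called.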

How the results depend on the processing

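Of 1476 recomputed values of single genes, 1374 kept their direction and side of the threshold, 68 lost the call, 17 gained one and 17 changed sign. The M-MDSC count of 4 became 1 when only the 2 groups compared were fitted, where the share of all genes called fell to 11.7%. The count for the difference of age effects, 5, became 2 with batch 1 alone (beside 3.41% of all genes). It became 2 with a replicate block in batch 1 (5.08%) and 3 without the batch 1 partners (6.08%). Leaving out each library gave 7 to 8 genes in PMN-MDSC (beside 36.2% to 53.5% of all genes) and 3 to 4 in M-MDSC (22.4% to 33.1%). It gave 4 to 5 for the difference (13.4% to 19.8%). Between cell types it gave 4 to 5 in adults (16.9% to 35.0%) and 5 to 8 in newborns (33.2% to 47.7%). Sign changes concerned differences that were not called; the cause was not tested. Between ages in M-MDSC, Itgam was -0.0016 (without newborn replicate 3) to 0.23 with each library left out, Itgb2 -0.38 and Itgb1 0.34 with batch 2 alone, and Selplg 0.29 with batch 1 alone, 0.16 with the replicate block, 0.064 with limma-voom and -0.41 to 0.24 with each library left out (highest without adult replicate 28). For the difference of age effects, Itgax was 0.31 with batch 1 alone and 0.27 with the replicate block, and Itgb1 was 0.012 and Selplg -0.34 with batch 2 alone. Between adult cell types, Itgb2 was -0.0081 with batch 1 alone, -0.055 with limma-voom and -0.069 to 0.37 with each library left out (lowest without adult M-MDSC replicate 28), and Itga4 was -0.40 and Selplg 0.32 with batch 2 alone; between newborn cell types Selplg was -0.026 with batch 2 alone. In batch 1 the correlation of deviations between groups was -0.05 to 0.18 in 12 same-number pairs and -0.18 to 0.08 in 25 others. It was highest between adult PMN-MDSC and adult M-MDSC of the same number, at 0.176 for replicate 1 and 0.182 for replicate 3. With so few libraries per group many of these values mirror each other. The check therefore cannot tell whether replicate numbers pair the libraries. With batch 2 alone the median of all genes was -1.04 between adult cell types and 0.57 for the difference of age effects, against -0.13 and -0.06. Scaling moved the median of all genes between ages in PMN-MDSC from -0.05 to -0.22 with DESeq2 size factors and -0.29 with upper-quartile scaling. It moved the split of calls from 3514 higher and 2657 lower to 2982 and 3304, or 2756 and 3552. Under both, 8 of the 9 genes were called, beside 48.6% and 48.7% of all genes.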
